A study of Mus musculus with 83 samples.

Results

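A set of 10 genes of the enteric nervous system was followed in the aging mouse colon: the neuronal genes Elavl4, Scg3, Uchl1 and Prph, the transmitter enzymes Chat and Nos1, and the neuropeptide genes Vip, Tac1, Penk and Npy. They were taken by symbol, and all 10 were found among the 37764 genes of the count table. The samples were 83 male C57BL/6J/Ukj mice that had been kept for aging only, 16 each at 3, 9 and 15 mo, 17 at 24 mo and 18 at 28 mo. RNA came from the proximal section of the colon, and was sequenced after polyA enrichment with a stranded kit, in 3 library preparation batches that each held every age. In a bulk sample, fewer neurons and less RNA per neuron cannot be told apart.

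The enteric nervous system lies in the gut wall as ganglia between the muscle layers and below the mucosa, and it drives movement and secretion without input from the brain. Excitatory motor neurons use acetylcholine, made by choline acetyltransferase (Chat), together with tachykinins such as substance P, made from Tac1. Inhibitory motor neurons use nitric oxide, made by neuronal nitric oxide synthase (Nos1), together with vasoactive intestinal peptide (Vip). Elavl4 encodes an RNA-binding protein of neurons, Scg3 a granin of secretory granules, Uchl1 the ubiquitin hydrolase PGP9.5 used to stain enteric neurons, and Prph the intermediate filament peripherin. Some of these genes are also active outside neurons: tuft cells of the epithelium make acetylcholine with Chat, and endocrine cells share granule genes with neurons. Elavl4 and Scg3 were also picked out in the study for methylation changes in the same colons, and Chat for changes of methylation and expression late in life, so the direction of these 3 is not independent evidence.

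The promoters of 4 of the genes are shown because Scg3 and Vip fell with age with or without a term for smooth muscle in the model, whereas Elavl4 and Prph were called only with that term. Tac1 and Chat fell with or without it too, but their windows are not printed, since 182 and 80 of the bases lie inside the GENCODE gene. Uchl1 and Nos1 were called only with the term as well and are not printed either. Their RefSeq starts lie 30 and 85807 bases from the GENCODE start. Each line gives the 250 bases before the RefSeq start in GRCm38.p6, with capitals for any match on either strand to TGACG (the core of the cyclic AMP response element, which also lies within the full site TGACGTCA), to TATAAA (the TATA box) or to CACGTG (an E-box).
Scg3 (chr9:75684057-75684306, minus strand): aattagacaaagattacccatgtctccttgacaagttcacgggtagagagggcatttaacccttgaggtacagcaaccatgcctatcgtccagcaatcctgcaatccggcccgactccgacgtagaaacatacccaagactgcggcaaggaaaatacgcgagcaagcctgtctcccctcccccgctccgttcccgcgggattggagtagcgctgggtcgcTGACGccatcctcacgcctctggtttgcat
Vip (chr10:5638968-5639217, plus strand): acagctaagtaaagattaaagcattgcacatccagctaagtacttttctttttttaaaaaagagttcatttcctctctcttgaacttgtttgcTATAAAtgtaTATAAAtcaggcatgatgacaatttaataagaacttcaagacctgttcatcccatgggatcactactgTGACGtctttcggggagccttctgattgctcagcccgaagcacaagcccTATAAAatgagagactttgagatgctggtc
Elavl4 (chr4:110351912-110352161, minus strand): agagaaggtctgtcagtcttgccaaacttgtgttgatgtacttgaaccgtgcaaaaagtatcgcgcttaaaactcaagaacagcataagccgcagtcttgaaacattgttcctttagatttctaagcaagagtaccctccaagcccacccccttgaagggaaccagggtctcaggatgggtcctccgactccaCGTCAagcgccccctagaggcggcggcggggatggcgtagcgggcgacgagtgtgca
Prph (chr15:99054924-99055173, plus strand): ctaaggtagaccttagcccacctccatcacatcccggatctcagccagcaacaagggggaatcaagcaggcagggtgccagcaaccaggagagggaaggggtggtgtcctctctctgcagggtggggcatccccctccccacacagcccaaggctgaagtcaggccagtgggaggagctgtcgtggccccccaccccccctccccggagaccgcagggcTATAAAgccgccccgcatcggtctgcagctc
TGACG stood once before Scg3, Vip and Elavl4 and was not found before Prph, while 17.8% of 32851 mouse promoter windows of this length held it. TATAAA stood 3 times before Vip and once before Prph, against 12.4% of all windows with at least 1 match. TGACGTCA and CACGTG were found in none of the 4 windows, against 1.55% and 6.02% of all windows. The windows of Tac1 and Chat held 2 and 1 matches to TGACG and 1 match each to CACGTG, with 0 to TATAAA and TGACGTCA. That of Nos1 held 1 match, to TGACG, and that of Uchl1 held no match to any of these sequences. These matches describe letters only.

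The level of smooth muscle RNA differed between the colon samples, and the labels do not tell how much of the muscle wall each piece held. A smooth muscle score, the mean log2 CPM (read pairs scaled to library size) of 9 contractile genes such as Acta2 and Myh11, averaged 8.30 ± 0.78 (SD, n = 16) at 3 mo, 8.55 ± 0.58 (n = 16) at 9 mo, 8.68 ± 0.13 (n = 16) at 15 mo, 8.79 ± 0.22 (n = 17) at 24 mo and 8.59 ± 0.23 (n = 18) at 28 mo. Its spread was widest in the young mice. Of these, 4 at 3 mo and 3 at 9 mo lay below 8.05, the lowest score among mice of 15, 24 and 28 mo, and they came from all 3 batches (2, 1 and 4 mice). By the way this limit is set only young mice can fall below it. The mice had from 23026370 to 75838290 gene-assigned read pairs each (median 35495123), and no 2 mice of an age agreed within counting noise.

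Per unit of length, Penk and Vip stood highest and Npy lowest. Over 83 mice, Penk (proenkephalin) averaged 29.4 ± 8.55 TPM (transcripts scaled by length and depth, SD), Vip 27.9 ± 6.87, Uchl1 20.0 ± 5.95 and Prph 16.6 ± 5.32 TPM. Lower down came Tac1 with 8.69 ± 2.11, Scg3 with 7.33 ± 2.41, Nos1 with 3.73 ± 1.41 and Elavl4 with 2.16 ± 0.69 TPM. Chat averaged 0.719 ± 0.18 TPM and Npy 0.465 ± 0.31 TPM. Penk and Vip, Uchl1 and Prph, Tac1 and Scg3, and Chat and Npy were neighbours whose means differed by less than the larger of their SDs. Npy, a transmitter of sympathetic as well as enteric neurons, had 0 to 13 read pairs per mouse with a median of 3 and did not pass the filter on low counts, so 9 of the 10 genes were tested.

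Among the neuronal genes, Scg3 fell most. Scg3 (ENSMUSG00000032181, chr9:75643189-75684056, minus strand, GRCm38) had 3.55, 7.85 and 13.6 CPM as its lowest, median and highest values at 3 mo, 4.03, 7.49 and 9.59 CPM at 9 mo, and 4.18, 7.38 and 8.78 CPM at 15 mo. At 24 mo the values were 4.06, 5.83 and 7.01 CPM, and at 28 mo 2.61, 5.36 and 7.82 CPM. All 18 mice at 28 mo lay below the 3 mo median and all 17 mice at 24 mo below the 15 mo median, although the ages overlapped. At 28 against 3 mo, Scg3 fell by 39.0% (log2 change -0.71 ± 0.13 SE, edgeR adjusted p = 6.41e-06).

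Elavl4, Uchl1 and Prph were not called between 28 and 3 mo, and their ranges were narrower at 28 mo. Elavl4 (chr4:110203722-110351909, minus strand) ranged from 1.27 to 6.86 CPM around a median of 4.33 at 3 mo and from 1.498 to 4.79 around 3.32 at 28 mo. Uchl1 (chr5:66676091-66687234, plus strand) ranged from 3.04 to 17.5 CPM around 10.3 at 3 mo and from 5.57 to 14.9 around 9.77 at 28 mo. Prph (chr15:99055174-99058978, plus strand) ranged from 2.83 to 20.9 CPM around 11.4 at 3 mo and from 5.64 to 15.8 around 9.75 at 28 mo. The 28 mo values lay inside the 3 mo range in all 3 genes. Their log2 changes at 28 against 3 mo were -0.30 ± 0.17 (SE) for Elavl4, -0.15 ± 0.16 for Uchl1 and -0.21 ± 0.17 for Prph, with edgeR adjusted p of 0.145, 0.467 and 0.306.

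Chat, the enzyme of the main excitatory transmitter, was low and fell with age. Chat (chr14:32408203-32465989, minus strand) had 0.492, 1.17 and 1.86 CPM at 3 mo, 0.858, 1.18 and 1.75 at 9 mo and 0.805, 1.22 and 1.66 at 15 mo. It had 0.742, 1.03 and 1.35 CPM at 24 mo and 0.314, 0.982 and 1.24 at 28 mo. The ages overlapped, with 16 of 18 mice at 28 mo below the 3 mo median. At 28 against 3 mo it fell by 24.0% (log2 change -0.40 ± 0.12 SE, edgeR adjusted p = 0.00488), with 9 to 82 read pairs per mouse behind these values.

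Nos1, the enzyme of the main inhibitory transmitter, varied more between young mice, relative to its mean, than any other tested gene here. Nos1 (chr5:117781032-117958840, plus strand) had 1.93, 14.7 and 30.4 CPM at 3 mo, where its SD was 56.0% of its mean, and 5.02, 11.7 and 18.8 CPM at 28 mo, where it was 31.6%. The 28 mo mice lay within the 3 mo range. The change at 28 against 3 mo was -0.30 ± 0.20 on the log2 scale (SE, edgeR adjusted p = 0.233).

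Of the 3 tested peptide genes, Vip and Tac1 fell and Penk was not called. Vip (chr10:5639218-5647617, plus strand), whose product relaxes muscle and stimulates secretion, had 15.4, 35.4 and 52.1 CPM at 3 mo, 25.3, 35.0 and 45.1 at 9 mo and 21.8, 29.7 and 43.7 at 15 mo. It had 15.1, 29.0 and 42.1 CPM at 24 mo and 19.3, 26.3 and 35.0 at 28 mo, where all 18 mice lay below the 3 mo median. Vip fell by 28.0% at 28 against 3 mo (log2 change -0.47 ± 0.11 SE, edgeR adjusted p = 0.000191).

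Tac1 (chr6:7554879-7565834, plus strand), the tachykinin precursor, had 5.29, 10.2 and 15.1 CPM at 3 mo, 6.18, 10.2 and 14.4 at 9 mo, and 7.55, 10.5 and 12.6 at 15 mo. It had 6.26, 9.87 and 11.6 CPM at 24 mo and 4.63, 8.63 and 9.78 at 28 mo. All 18 mice at 28 mo lay below the medians of both 3 and 15 mo. Tac1 fell by 26.1% at 28 against 3 mo (log2 change -0.44 ± 0.11 SE, edgeR adjusted p = 0.000874).

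Penk (chr4:4133531-4138819, minus strand), the enkephalin precursor, had 3.499, 14.8 and 26.6 CPM at 3 mo and 8.26, 15.6 and 20.4 at 28 mo. Its change was 0.01 ± 0.16 on the log2 scale (SE, edgeR adjusted p = 0.952), and 8 of 18 mice at 28 mo lay below the 3 mo median. Npy (chr6:49822710-49829507, plus strand) averaged 0.132 ± 0.082 CPM at 3 mo (SD, n = 16) and 0.070 ± 0.041 at 28 mo (n = 18), with mice at 0 counts at every age. Tested without the filter, Npy had a log2 change of -0.79 ± 0.31 (SE, edgeR adjusted p = 0.0569), which rests on a few read pairs per mouse.

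**Figure D1:**
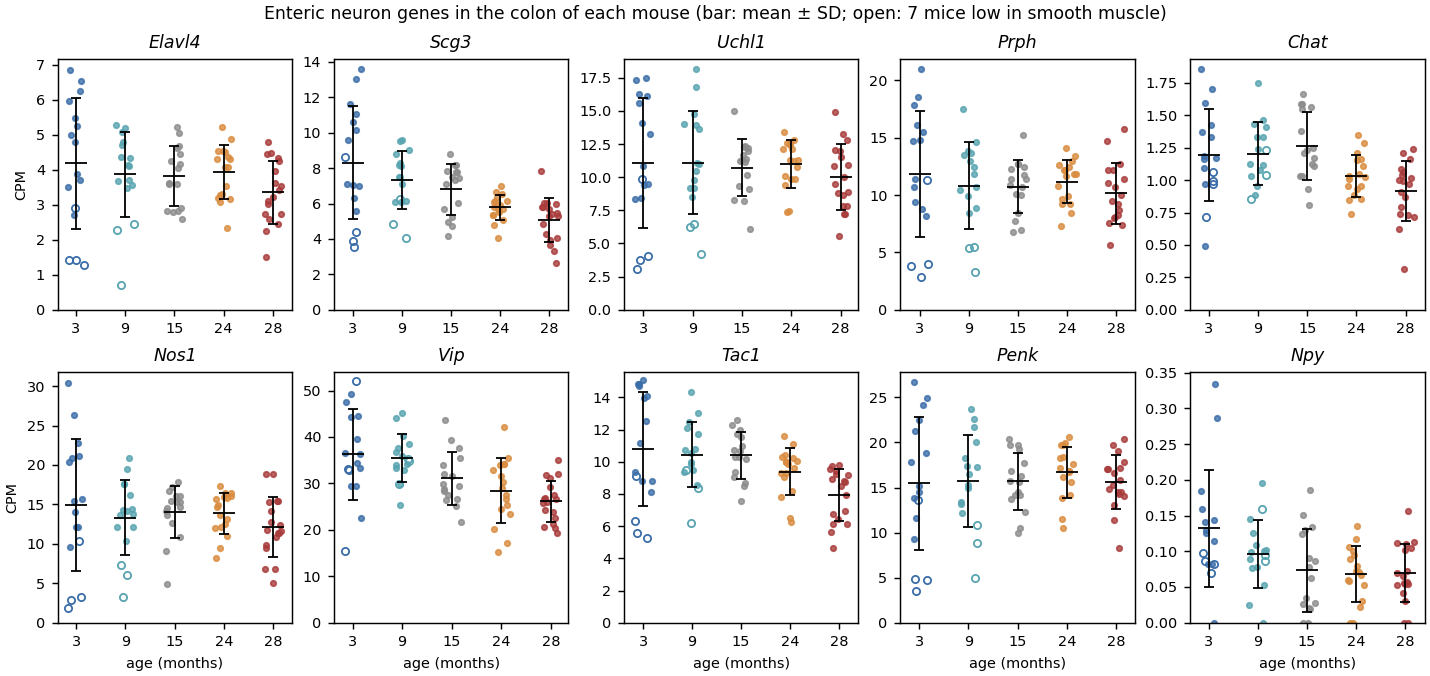
CPM of each gene in each of 83 mice, by age in months, with the mean ± SD as bars and open circles for the 7 mice low in smooth muscle. All 18 mice of 28 mo lay below the 3 mo medians of Scg3, Vip and Tac1, and Nos1 ran from 1.93 to 30.4 CPM at 3 mo.

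Counted over the genes, 4 of 9 (Scg3, Vip, Tac1 and Chat) fell at 28 against 3 mo, where 25.9% of all 18325 tested genes fell, and none rose. The same 4 were called for a straight line in age, where 27.4% of all genes fell. These 4 were also called for any difference over the 5 ages, as were 54.9% of all genes. Their slopes were -0.27 ± 0.04 for Scg3, -0.19 ± 0.04 for Vip, -0.16 ± 0.04 for Tac1 and -0.16 ± 0.04 for Chat (log2 change per 10 months ± SE). No gene was called for departure from the line, as 16.2% of all genes were, and none had an unadjusted p below 0.05 there.

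No step between neighbouring ages was called by edgeR with age and batch alone in the model. By edgeR, 0 of 9 genes were called at 9 against 3 mo (0 at an unadjusted p below 0.05, background 8.69%), 0 at 15 against 9 mo (0, background 0.431%), 0 at 24 against 15 mo (1, background 7.24% for falls) and 0 at 28 against 24 mo (1, background 11.7%). DESeq2 called 0 in the other steps and 1 at 24 against 15 mo, Chat. Some other settings called more genes at 24 against 15 mo or at 28 against 24 mo, as given in the closing section. Chat was also the nearest by edgeR, with -0.30 ± 0.12 on the log2 scale (SE, adjusted p = 0.106).

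Each batch was also fitted alone. At 28 against 3 mo, 2, 3 and 1 of the 9 genes fell in batches 1, 2 and 3, where 8.64%, 6.29% and 12.3% of all tested genes fell. For the line in age 3, 2 and 3 fell, against 8.95%, 8.69% and 14.6% of all genes. Scg3 had log2 changes of -0.64, -0.79 and -0.70 at 28 against 3 mo. Vip changed by -0.56, -0.39 and -0.41 and was called in batch 1 (adjusted p = 0.0491, 0.149 and 0.1002). Tac1 changed by -0.36, -0.47 and -0.45 and was called in batch 2 (adjusted p = 0.143, 0.0837 and 0.195). Chat changed by -0.13, -0.57 and -0.51 and was called in batch 2 (adjusted p = 0.721, 0.0754 and 0.138). Of the 4, Scg3 alone was called in each batch.

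Between mice, 9 of the 10 genes followed the smooth muscle score. With the means of age and batch removed, Pearson's r over 83 mice was 0.88 for Uchl1, 0.87 for Penk, 0.87 for Nos1, 0.86 for Prph, 0.84 for Elavl4, 0.76 for Tac1 and 0.74 for Scg3. In these 7 genes the two-sided permutation p was 1e-05, the smallest that 100000 resamples can give, and 1.43e-05 after adjustment over the 10 genes, and Spearman's rho ran from 0.62 to 0.77 with the same p. Chat (r = 0.39, permutation p = 0.0007, adjusted p = 0.000778; rho = 0.44, p = 9e-05, adjusted p = 0.000112) and Vip (r = 0.38, p = 0.00067, adjusted p = 0.000778; rho = 0.36, p = 0.00101, adjusted p = 0.00112) followed it less closely. Npy did not pass the test (r = 0.10, permutation p = 0.366; rho = 0.16, p = 0.146).

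Without the 2 mice farthest from the median score, r was 0.69 to 0.84 for the first 7 genes, 0.43 for Chat and 0.24 for Vip. Within the batches r ran from 0.60 to 0.93 in the 7 genes, from 0.17 to 0.59 for Chat and from 0.23 to 0.57 for Vip. Without the 7 mice low in smooth muscle, r was 0.62 to 0.79 in the 7 genes.

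**Figure D2:**
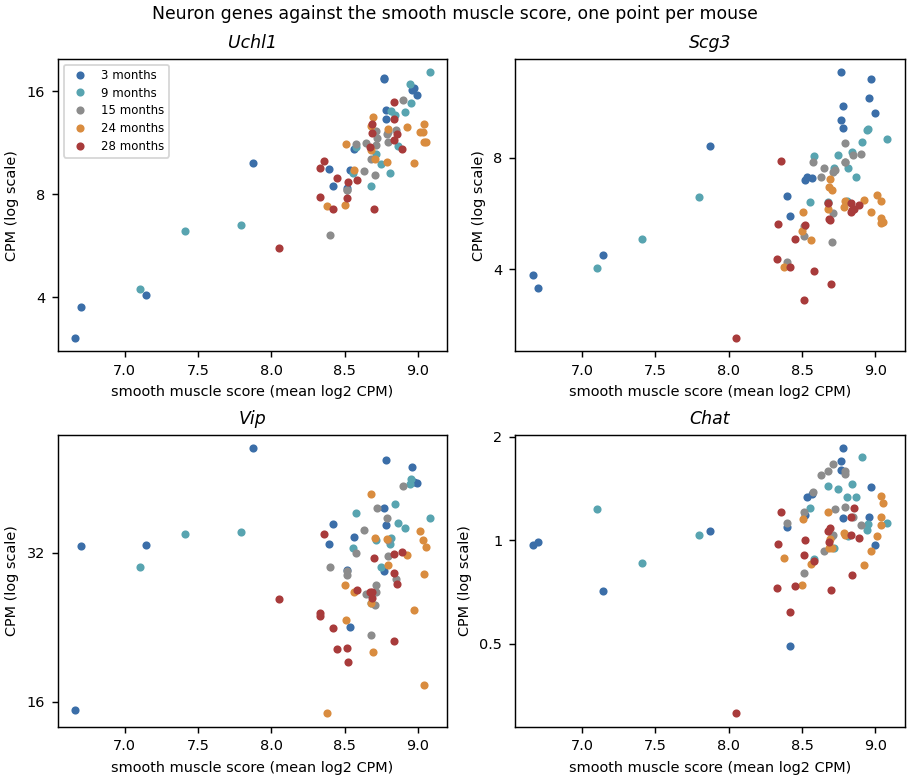
CPM (log scale) of Uchl1, Scg3, Vip and Chat against the smooth muscle score (mean log2 CPM), with each point a mouse coloured by age. Uchl1 followed the score (r = 0.88 within age and batch) and the 7 lowest scores were of mice of 3 and 9 mo, whereas Vip and Chat spread widely at a given score (r = 0.38 and 0.39).

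With the smooth muscle score as a further term of the model, 8 of 9 genes fell at 28 against 3 mo, against 26.3% of all genes, and Penk alone of the 9 was not called (log2 change -0.11 ± 0.09 SE, edgeR adjusted p = 0.34). Elavl4 fell by 25.5%, Nos1 fell by 25.2%, Prph fell by 22.5% and Uchl1 fell by 18.6%, with edgeR adjusted p of 0.000515, 0.00201, 0.000893 and 0.00218. Scg3 fell by 43.6%, Tac1 fell by 31.4%, Vip fell by 31.0% and Chat fell by 28.1% (adjusted p = 1.21e-11, 1.37e-08, 1.69e-05 and 0.000366). The median of the 9 log2 changes went from -0.30 to -0.42, while the median over all genes was -0.01 in either model. The score itself averaged 8.30 ± 0.78 (SD) at 3 mo and 8.59 ± 0.23 at 28 mo. A term whose mean differs between ages also moves the age estimates, and what this adds to the falls was not tested.

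The line in age gave the same 8 genes (background 27.3%), as did the test of any difference over the ages (background 55.3%), and departure from the line 0 (1 at an unadjusted p below 0.05, background 20.1%). The SE of the slope shrank most for genes that followed the score, from 0.053 to 0.028 for Uchl1, and hardly for Vip, from 0.036 to 0.035. At 9 against 3 mo 2 genes fell, Prph (log2 change -0.31 ± 0.10 SE, adjusted p = 0.0447) and Scg3 (-0.29 ± 0.09, adjusted p = 0.057), where 8.37% of all genes were called. At 24 against 15 mo 3 genes fell, Scg3 (-0.29 ± 0.09, adjusted p = 0.0382), Chat (-0.33 ± 0.11, adjusted p = 0.046) and Tac1 (-0.21 ± 0.08, adjusted p = 0.0722), against 6.59% of all genes. By edgeR 0 were called at 15 against 9 mo (1 at an unadjusted p below 0.05, background 0.622%) and 0 at 28 against 24 mo (0, background 13.1%), and DESeq2 called 0 in either.

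Within batches 1, 2 and 3, 3, 7 and 5 genes fell at 28 against 3 mo with the score in the model, against 9.66%, 7.09% and 8.79% of all tested genes. For the line 3, 5 and 6 fell, against 10.5%, 9.36% and 10.3%. Left without the 7 mice low in smooth muscle, a choice made after the data were seen, the model without the score had 8 genes lower at 28 against 3 mo, against 22% of 18431 genes tested there, and 8 for the line, against 24.8%. At 3 mo the remaining 12 mice averaged 13.1 ± 3.58 CPM of Uchl1 (SD), against 3.04 to 9.84 CPM in the 4 left out, so that leaving them out raised the young means.

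**Figure D3:**
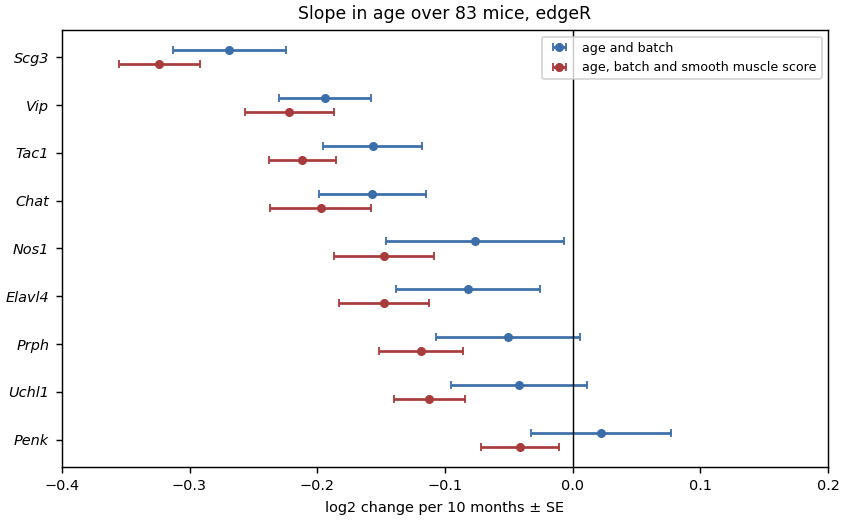
Slope in age over 83 mice as the log2 change per 10 months ± SE, from edgeR models with age and batch (blue) and with the smooth muscle score added (red). Scg3 had the steepest slope in either model (-0.27 and -0.32), and with the score added 8 of 9 genes were called, Penk (-0.04 ± 0.03) being the other.

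Scores of other cells moved with some of these falls. The endocrine score (9 genes such as Chga and Pyy) went from 4.80 ± 0.16 (SD, range 4.52 to 5.08) at 3 mo to 4.41 ± 0.15 (4.14 to 4.74) at 28 mo, and 6 of its 9 genes fell (background 25.9%). Neurod1 of this score was also picked in the study from these colons. Alone in place of the smooth muscle score, the endocrine score left Vip at -0.094 (log2, adjusted p = 0.624) and Tac1 at -0.26 (adjusted p = 0.153) at 28 against 3 mo, both no longer called, and Scg3 at -0.41 (adjusted p = 0.0445). Beside the smooth muscle score, the endocrine score left Vip at -0.16 (log2, adjusted p = 0.345) and 4 genes fell at 28 against 3 mo, against 17% of all genes, among them Scg3 (-0.53, adjusted p = 7.91e-05) and Tac1 (-0.38, adjusted p = 0.00115). At 24 against 15 mo these 2 lost their calls in that model, with -0.097 (adjusted p = 0.621) and -0.11 (adjusted p = 0.493). The tuft cell score (7 genes such as Trpm5 and Pou2f3) went from 2.86 ± 0.11 (2.69 to 3.05) to 2.39 ± 0.27 (1.82 to 2.801), and all 6 tested genes of it fell (background 25.9%). Alone, the tuft score left Chat at -0.016 (log2, adjusted p = 0.951) and 3 genes fell, Scg3, Vip and Tac1, against 15.9% of all genes. Beside the smooth muscle score, it left Chat at -0.12 (log2, adjusted p = 0.575) and 7 genes fell, against 14.3%. Since these scores fell with age themselves, a term for them also takes up part of the age difference, and what they contribute to the falls of Vip, Tac1, Scg3 and Chat was not tested.

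Some of these genes also went with the endocrine or the tuft score between mice of an age. Over 83 mice, Vip had r = 0.45 with the endocrine score (permutation p = 2e-05, adjusted p = 5e-05 over 40 relations; rho = 0.50, p = 1e-05, adjusted p = 2.86e-05) and Chat r = 0.45 with the tuft score (p = 1e-05, adjusted p = 2.67e-05; rho = 0.41, p = 0.00012, adjusted p = 0.000282). Without the 2 farthest mice r was 0.40 and 0.36. Within batches it was 0.49, 0.36 and 0.38 for Vip and 0.33, 0.43 and 0.69 for Chat. Scg3 went with the endocrine score less closely (r = 0.32, permutation p = 0.00354, adjusted p = 0.00708; rho = 0.37, p = 0.00068, adjusted p = 0.00136), as did Tac1 (r = 0.22, p = 0.048, adjusted p = 0.0872; rho = 0.28, p = 0.0122, adjusted p = 0.0232). Without the 2 farthest mice r was 0.29 and 0.19, and in batch 2 it was 0.085 and 0.036, against 0.35 and 0.50 in batches 1 and 3 for Scg3 and 0.33 and 0.20 for Tac1. Vip and Chat had r = 0.05 with each other, whereas Uchl1 and Penk had r = 0.96 over the same 83 mice.

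Enteric glia, which surround these neurons, were read from a list of their own, none of whose genes fell without the smooth muscle score. The glia score (7 genes such as S100b and Sox10) went from 2.95 ± 0.44 (SD, range 2.02 to 3.43) at 3 mo to 3.08 ± 0.18 (2.75 to 3.37) at 28 mo, with 2 of its 7 genes higher and 0 lower, or 1 and 1 with the smooth muscle score. The 2 rises were near the share of all genes that rose (23.5%), and the 1 and 1 lay below the 22.7% and 26.3% with the score. Sox10, the 1 lower with the score, was also picked in the study for methylation changes in these colons, so its direction is not independent evidence. With a glia term in place of the smooth muscle term, 8 genes fell at 28 against 3 mo, against 25.7% of all genes.

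The genes also went with glia and with interstitial cells of Cajal, the pacemaker cells of the gut muscle, between mice of an age. The 7 genes that followed smooth muscle most closely had r of 0.75 to 0.92 with the glia score and 0.57 to 0.79 with the score of interstitial cells (3 genes), with rho of 0.66 to 0.86 and 0.47 to 0.73 and permutation p of at most 2e-05 (adjusted p of at most 5.33e-05). Within batches r ran from 0.66 to 0.96 and from 0.52 to 0.87, and without the 2 farthest mice from 0.69 to 0.89 and from 0.57 to 0.76. Chat had r = 0.42 with interstitial cells (permutation p = 7e-05, adjusted p = 0.000165; rho = 0.37, p = 0.00064, adjusted p = 0.00135), near its 0.45 with tuft cells, and r = 0.39 with glia (p = 0.00053, adjusted p = 0.00112; rho = 0.41, p = 0.0001, adjusted p = 0.00025). Without the 2 farthest mice these were 0.41 and 0.40, and in the batches 0.18, 0.26 and 0.68 and then 0.25, 0.43 and 0.57. Vip had r = 0.26 with interstitial cells (p = 0.0163, adjusted p = 0.0311; rho = 0.26, p = 0.0168, adjusted p = 0.0305) and 0.39 with glia (p = 0.00042, adjusted p = 0.000933; rho = 0.37, p = 0.00046, adjusted p = 0.00102). Without the 2 farthest mice these were 0.24 and 0.28, and in the batches 0.12, 0.24 and 0.43 and then 0.18, 0.35 and 0.59. Whether Chat or Vip went more closely with one score than with another was not tested.

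**Figure D4:**
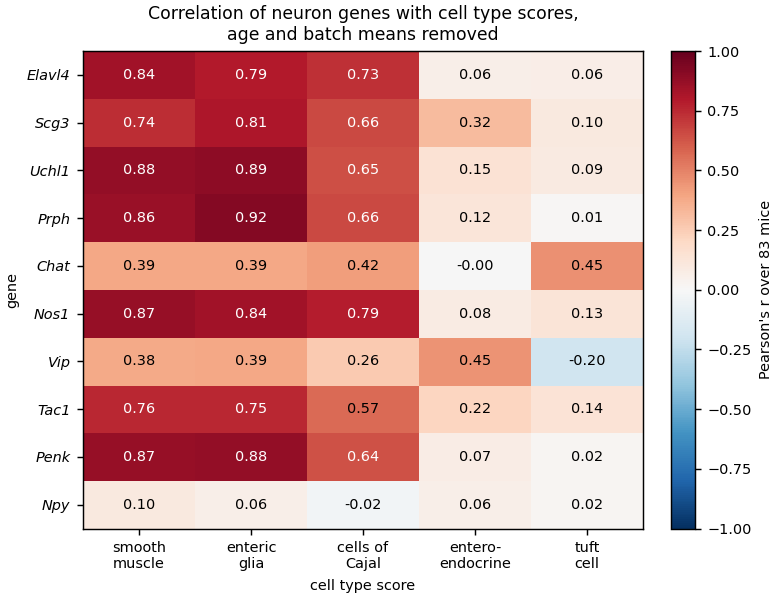
Pearson's r over 83 mice between the log2 CPM of each gene and 5 cell type scores, after age and batch means were removed. The neuronal genes, Nos1, Tac1 and Penk had r of 0.74 to 0.92 with smooth muscle and glia and 0.57 to 0.79 with interstitial cells of Cajal. Chat had 0.45 with tuft cells, 0.42 with interstitial cells and 0.39 with smooth muscle and glia, and Vip had 0.45 with endocrine cells, 0.39 with glia and 0.38 with smooth muscle.

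Other neuronal genes were read in the same models. Of 24 other pan-neuronal genes, 23 were tested, and at 28 against 3 mo 2 rose and 5 fell, or 2 and 19 with the smooth muscle score, with a median log2 change of -0.21, or -0.35. Of all tested genes 25.9% fell and 23.5% rose without the score, so that the 5 falls were a smaller share than the background, and 26.3% fell and 22.7% rose with it. The median over all genes was -0.01. The list holds Crmp1, Gdap1l1, Kctd8 and Nefl, which the study had picked from these colons, so their direction is not independent evidence. Without the score, the largest falls were in Kctd8 (log2 change -0.51 ± 0.23 SE, adjusted p = 0.059), Ina (-0.44 ± 0.18, adjusted p = 0.0414) and Gdap1l1 (-0.43 ± 0.14, adjusted p = 0.00806). Nefh, a heavy neurofilament chain, rose from 1.46 ± 0.37 CPM at 3 mo (SD, n = 16) to 2.22 ± 0.52 at 28 mo (n = 18), with a log2 change of 0.58 ± 0.10 (SE, adjusted p = 1.59e-06).

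Around acetylcholine, 3 of 7 other genes rose at 28 against 3 mo (background 23.5%) and 0 fell (background 25.9%), although the median log2 change of the 7 was -0.15, and -0.27 with the smooth muscle score. Ache, which breaks acetylcholine down, rose from 21.4 ± 2.30 to 32.0 ± 4.03 CPM (log2 change 0.58 ± 0.05 SE, adjusted p = 1.16e-16). The receptor genes Chrm2 (0.37 ± 0.16, adjusted p = 0.0581) and Chrnb4 (0.16 ± 0.06, adjusted p = 0.0331) rose as well. At 3 mo Ache and Chrnb4 (25.9 ± 4.38 CPM, SD) varied less between mice, relative to the mean, than Slc18a3 (1.77 ± 0.86 CPM). Which cells these RNAs came from was not tested. With the smooth muscle score, 3 rose and 3 fell (background 22.7% and 26.3%), the falls being Slc18a3, the vesicular transporter (-0.47 ± 0.12, adjusted p = 0.00103), Slc5a7, the choline carrier (-0.37 ± 0.12, adjusted p = 0.00982), and Chrna3, a nicotinic receptor subunit (-0.30 ± 0.10, adjusted p = 0.0119). On the side of nitric oxide, 3 of 4 genes of its receptor and targets rose in either model (background 23.5%, or 22.7% with the score), with a median log2 change of 0.24, or 0.13 with the score, among them Gucy1a1 (0.34 ± 0.09, adjusted p = 0.00163).

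Of 16 other neuropeptide and transmitter genes, 12 were tested, and 1 rose and 4 fell (median log2 change -0.28), or 1 and 8 with the smooth muscle score (-0.43). Without the score the 4 falls were near the share of all genes that fell (25.9%) and the 1 rise was below the share that rose (23.5%), and with it the backgrounds were 26.3% and 22.7%. The 1 called higher was Calca, the precursor of calcitonin and CGRP, at 0.062 ± 0.051 CPM (lowest 0) at 3 mo and 0.620 ± 0.206 at 28 mo. Its 3 mo level, below that of Npy, rests on a few read pairs per mouse and its passing of the low count filter on the older ages, so no fold change is given. Gal, the galanin precursor, fell from 7.61 ± 3.73 to 3.87 ± 0.94 CPM (-0.99 ± 0.17, adjusted p = 2.07e-06). Sst, the somatostatin precursor (-0.63 ± 0.16, adjusted p = 0.000909), and Gad2, an enzyme of GABA synthesis (-0.54 ± 0.08, adjusted p = 7.81e-08), also fell, and Sst is made by endocrine cells too. Of 11 receptor genes for the peptides of Vip, Tac1, Penk and Npy, 9 were tested, and the VIP receptor gene Vipr2 alone fell (-0.20 ± 0.07, adjusted p = 0.028), fewer than the background share, or with the score Vipr2 and the opioid receptor gene Oprk1 (-0.41 ± 0.17, adjusted p = 0.0434).

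The genes most like the 9 tested genes were found by correlation. Among 18316 other genes, the mean of the 9 was followed most closely over 83 mice, age and batch removed, by Scg2 (r = 0.97), Ndrg4 (0.96), Gap43 (0.96), Rtn1 (0.95) and Zcchc12 (0.95). Each gene's own closest was Nap1l5 for Elavl4 (0.93), Snap25 for Scg3 (0.90), Ndrg4 for Uchl1 (0.95), Tubb3 for Prph (0.95), Slc7a14 for Nos1 (0.95), Stmn3 for Tac1 (0.90) and Nsg2 for Penk (0.95). Chat and Vip again stood apart, with Rnf112 at 0.64 and Scgn, a gene of the endocrine list, at 0.71. These values describe the samples, which were taken as pieces of the same tissue.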

How the data were processed

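Per the labels and the study's methods, the authors trimmed reads with cutadapt 2.8, aligned them to GRCm38.p6 with HISAT2 2.1.0, and counted read pairs per gene by strand with featureCounts (Subread 2.0.1). The deposited values are raw counts per gene and mouse. Symbols, positions and exon lengths (for TPM) came from GENCODE vM21 on GRCm38, an earlier release than the one the authors counted on.

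The genes and lists were chosen with earlier results of these data known. Counts were filtered with filterByExpr by age (18325 genes kept), scaled by TMM and fitted with edgeR 4.0.16 in R 4.3.3 by quasi-likelihood, with age and batch over 83 mice. P-values were Benjamini-Hochberg adjusted over all tested genes within each comparison, with a threshold of 0.1. The smooth muscle score (prior count 2) was added as a covariate. Named genes beyond the 10 were at most the 3 largest changes called in each direction of a list, the 5 closest to the mean of the 9 tested genes, and each gene's closest. Outside this rule, and chosen after their values were seen, are the example genes of each score and Crmp1, Nefl, Neurod1 and Sox10, named because the study had picked them; some single-gene results are not reported here. Uchl1, Nos1 and Penk overlap exons on the other strand, which stranded counting separates.

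The other lists gave, as genes higher and lower at 28 against 3 mo, where 23.5% of all genes rose and 25.9% fell, 0 and 0 of 3 for interstitial cells of Cajal, 0 and 4 of 7 for epithelium, 1 and 2 of 5 for fibroblasts, 1 and 0 of 5 for T cells, 0 and 3 of 4 for B cells, 1 and 0 of 4 for adipocytes, and 0 and 0 of 9 for smooth muscle. Epithelium scored highest of these lists, at 10.3 ± 0.10 (SD) at 3 mo.

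The fits were tested on simulated data of 18325 genes with 100 genes changed by 0.2 and 100 by 0.1 (log2 per 10 months). Without the smooth muscle score the line recovered 95 and 59 of them, with 17 unchanged genes among 171 called. With the score it recovered 96 and 63, with 26 among 185. The simulated smooth muscle signal had no age difference, whereas the measured score differed between ages. The simulation therefore does not test the score's term under such a difference. Alternatives were DESeq2 1.42.0, its size factors, other filters and thresholds, no batch term, a replicate block, only the ages compared, single batches, other scores and fewer mice.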

Additional observations from a re-analysis of the deposited data

How the results depend on the processing

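Counts are of the 9 tested genes called, and percents are of all genes called in the same fit (lower with age, except for any age). DESeq2, its size factors and no batch term left 4 genes at 28 against 3 mo (24.8%, 24.5% and 25.7%). With the smooth muscle score each left 8 (24.3%, 24.1% and 26.2%). No filter gave 5 and 9 of 10 (12.3% and 12.2%), with Npy added. At least 10 counts in every mouse gave 3 and 7 of 8 (27.1% and 25.7%), Chat not being tested. The replicate numbers do not pair mice: 161 same-numbered pairs had a median correlation of 0.02, with 31 over 0.1, and 9 mice were closest to their own number. The replicate block called 4 and 8 genes (24.8% and 24.5%) and changed no count of calls.

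Without the smooth muscle score, the call at 24 against 15 mo went from 0 to 1 with DESeq2 (7.23%), 2 with only the 2 ages fitted (9.11%), 6 with the glia score (3.57%), 3 with the other pan-neuronal score (8.16%) and 1 without the 7 mice low in smooth muscle (8.27%), and at 28 against 24 mo to 1 with each of the last 3 (7.39%, 7.02% and 6.05%). At 28 against 3 mo (4) it was 2 and 1 in batches 1 and 3 (8.64% and 12.3%), 8 with glia (25.7%), 2 with the endocrine score (17.7%) and 8 without the 7 mice (22%). For the line (4) it was 2 in batch 2 (8.69%), 8, 2 and 8 likewise (26%, 15.6% and 24.8%). For any age (4) it was 2, 1 and 1 in the batches (17.8%, 12% and 15.6%), 9 with glia (53.9%), 1 with the endocrine (38.2%) and 2 with the tuft score (36%), and 8 without the 7 mice (50.5%). With the other pan-neuronal score, 5 genes were called in either direction (52.9%), and Penk was higher at 28 against 3 mo (0.28, adjusted p = 4.69e-05).

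With the smooth muscle score, calls at 9 against 3 mo (2) became 1 at a threshold of 0.05 (2.52%), 1 with no filter (1.19%) and 0 in each batch (0.103%, 0.137% and 0.163%). Calls at 24 against 15 mo (3) became 1 with no filter (1.77%), 0 in each batch (0.0217%, 0.487% and 0.0975%) and 1 with the endocrine or the tuft score (3.4% and 4.37%). At 28 against 3 mo (8) they were 3 and 5 in batches 1 and 3 (9.66% and 8.79%) and 4 with the endocrine score (17%), for the line 3 and 5 in batches 1 and 2 (10.5% and 9.36%), and for any age 5, 4 and 4 in the batches (19.5%, 13.8% and 14.1%). Batches hold fewer mice. For the other changes the cause was not tested.

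Directions turned without the smooth muscle score only in uncalled values (log2, per 10 months for lines). At 24 against 15 mo, Tac1 was 0.033 in batch 2. At 28 against 3 mo, Nos1 was 0.054, Prph 0.024 and Uchl1 0.062 with the pan-neuronal score, Uchl1 0.00022 in batch 3 and 0.051 with the endocrine score, and Penk -0.069 in batch 2, -0.026 with glia and -0.23 without the 7 mice. For the line, Nos1 was 0.023, Prph 0.018 and Uchl1 0.015 with the pan-neuronal score, Prph 0.0059 in batch 3 and 0.0039 with the endocrine score, Uchl1 0.037 with it, and Penk -0.028 with glia and -0.073 without the 7 mice. The tuft, pan-neuronal and paired scores and the set without the 7 mice were chosen after seeing the data. At this depth Npy, with a median of 3 read pairs, allows no firm statement.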
